A study of Mus musculus with 12 samples.

Results

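Respiratory complex I was followed through 37 genes of mouse liver, taken as every gene of the deposited table whose symbol starts with Nduf, followed by a letter a, b, c, s or v and a digit. Pseudogenes and the Ndufaf assembly factors do not meet that rule, and no measured value entered it. The table holds 24532 genes, of which 13379 had enough reads to be tested, and all 37 members were among them. Liver RNA came from 12 mice of the strain C57BL/6x129S6/SvEv at an age of 20 wk, with 4 mice in each of 3 groups. Het mice were the heterozygous control, and KO mice were Atp7b-/-. KO_drug mice were Atp7b-/- and received food with an LXR agonist (the liver X receptors are nuclear receptors that sense sterols). Both knockout groups thus carry the same genotype, and no group of Het mice given the agonist, or of wild-type mice, was analysed here. Atp7b encodes the copper pump with which hepatocytes load ceruloplasmin and send copper into bile, and its loss causes Wilson disease. The labels give neither the allele, the sex and the litter of the mice nor the name, dose and duration of the agonist.

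Complex I is the entry point of the respiratory chain for NADH. Its matrix arm holds an N module, which takes electrons from NADH through a flavin, and a Q module, which passes them over iron-sulfur clusters to ubiquinone. Its membrane arm pumps protons and is divided into a proximal part, next to the matrix arm, and a distal part at the far end. Core subunits carry out the chemistry and are conserved from bacteria, while accessory subunits surround them and are needed for assembly and stability. The core subunits of the membrane arm are encoded by mitochondrial DNA and were not analysed here, so all values are of nuclear genes. In hepatocytes, copper overload is known to damage mitochondria, and the respiratory chain is among the well-described sites of injury in Wilson disease. The name rule also takes in Ndufa4, now known as a subunit of cytochrome c oxidase, and its hypoxia-induced relative Ndufa4l2. It leaves out Ndufab1, the acyl carrier protein of the matrix, whose values are given with the other lists.

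Library totals ranged from 16.5 to 28.3 in units of 1e6 counts. Atp7b stood at 9.90, 13.1, 12.2 and 16.2 CPM in Het 1 to 4, at 1.76, 1.68, 2.71 and 2.20 CPM in KO 2, 4, 5 and 6, and at 1.31, 3.49, 1.27 and 2.81 CPM in KO_drug 1 to 4. CPM are counts per 1e6 counts on library sizes scaled by TMM, a factor that sets the typical gene to no change. All KO and KO_drug libraries lay below all Het libraries for Atp7b. The TMM factors were 0.768 to 0.984 in Het, 1.15 to 1.30 in KO and 0.907 to 1.00 in KO_drug, so the scaling moves the groups against each other, and counts of members and gene lists are also given on plain library totals. Xist, which marks cells with an inactive X chromosome, reached 81.7 CPM in KO 5 and 17.8 CPM in KO 6, with a maximum of 0.425 CPM elsewhere, and the labels give no sex. Ddx3y, a gene of the Y chromosome, was at 0.379 CPM in KO 5, at 64.4 CPM in KO 6 and at 79.4 to 111 CPM in the others, so KO 6 alone held both transcripts at these levels. The defining hepatocyte markers were abundant: the share of counts in 12 of them was 11.1 ± 1.26% for Het, 8.60 ± 1.06% for KO and 9.12 ± 0.495% for KO_drug (SD, n = 4 each). The 4 libraries of a group were counted as 4 animals, as the numbered titles imply, and p-values measure the spread between these libraries only.

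Het 1 stood apart from the other Het libraries in a way that bears on these genes. It was the highest Het library for 32 of the 37 members and exceeded the other 3 by a median of 0.465 on the log2 scale. The deviation followed the length of the gene model: over all tested genes, Het 1 exceeded its group by a median of 0.465 for genes under 1000 nt and by 0.198 for genes of 1000 to 2000 nt. For genes of 2000 to 4000 nt and longer ones the deviation was -0.0094 and -0.0173. Complex I genes are short, with a median of 826 nt (range 433 to 3462) against 3532 nt for all tested genes, and 23 of the 37 are under 1000 nt. KO 2 deviated the other way, by -0.284 for genes under 1000 nt, and was the lowest KO library for 30 members. Results are therefore also given without Het 1, and with a correction for gene length that was added after the data were seen. Medians of the length classes are given with each comparison below. The part of gene length in the differences between groups was not tested beyond these values.

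**Figure D1:**
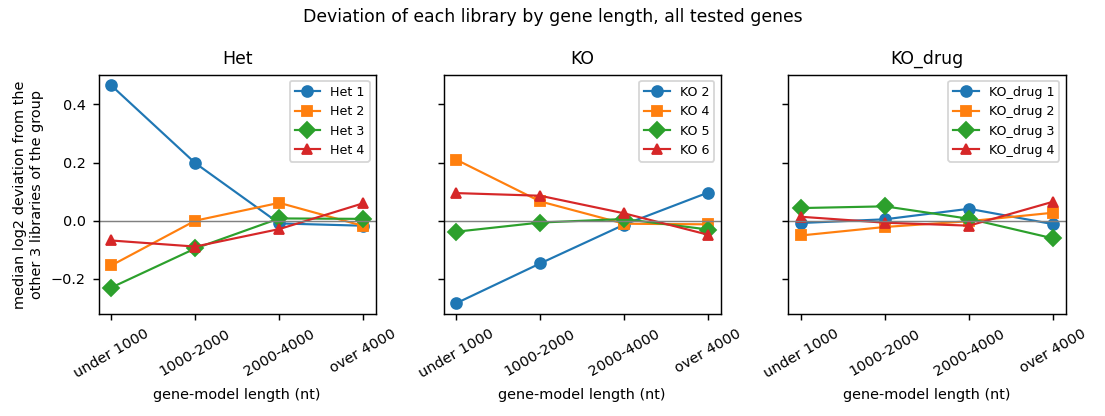
Median deviation (log2, y axis) of each library from the other 3 libraries of its group, over all tested genes in 4 classes of gene-model length (x axis, nt), with a panel per group and a line per library. Het 1 rises to 0.465 and KO 2 falls to -0.284 for genes under 1000 nt, while the 4 KO_drug libraries stay between -0.0508 and 0.0434 in that class.

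Loss of Atp7b was accompanied by lower levels of complex I transcripts relative to the typical liver gene. Of the 37 members, 27 were called lower in KO than in Het (edgeR quasi-likelihood test, adjusted p under 0.05 over all 13379 genes) and 0 higher. Among all tested genes 17.7% were called lower and 23.0% higher. The median member changed by -0.59 on the log2 scale against 0.02 for all tested genes. Short genes were lower in general: the median over all tested genes was -0.29 under 1000 nt and -0.10 at 1000 to 2000 nt. These 2 length classes hold 23 and 11 of the members. The estimate was below 0 for 36 members, and the exception was Ndufa4l2. For 27 members all 4 KO libraries lay below all 4 Het libraries, a pattern that 17.1% of tested genes showed. The call set and the set without overlap differ in 2 genes: Ndufb7 was called although its groups overlapped, and Ndufb6 did not overlap but missed the threshold (adjusted p = 0.0657). Without Het 1, 25 members were called lower with a median of -0.43, and with the length correction 21 were, with a median of -0.41. Among all genes 2222 and 2634 were called lower in these 2 fits, with medians of 0.03 and -0.01, against 2371 in the main fit.

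**Figure D2:**
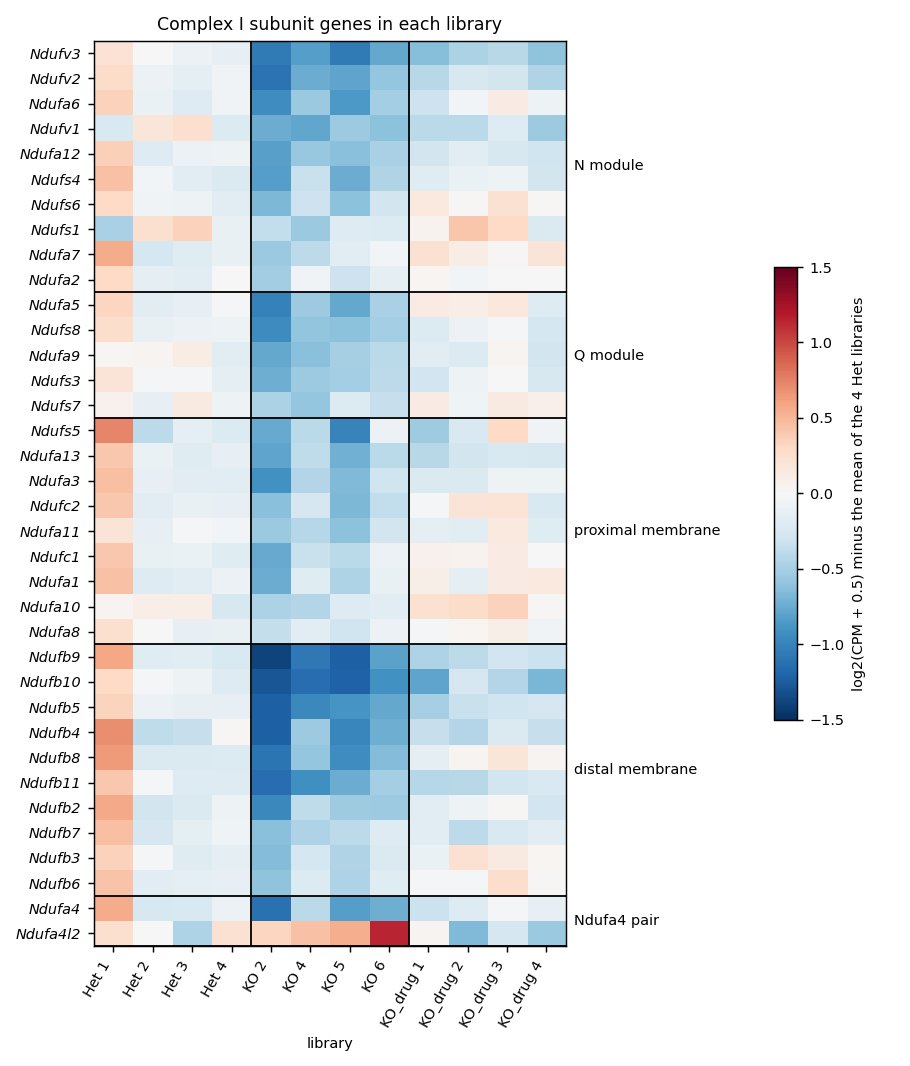
Level of 36 of the 37 genes (rows, by module) in each of the 12 libraries (columns), as log2(CPM + 0.5) minus the mean of the 4 Het libraries, so that blue is lower and red higher than Het. The KO columns are blue for all genes shown but Ndufa4l2, the column of Het 1 is red for most, and the KO_drug columns are paler than the KO columns.

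The call rests on the scaling. As a share of all counts, the 37 genes together took 0.478, 0.284, 0.293 and 0.308% in Het 1 to 4, 0.261, 0.343, 0.310 and 0.327% in KO 2, 4, 5 and 6, and 0.338, 0.342, 0.348 and 0.340% in KO_drug 1 to 4. On that scale the groups overlap, and without Het 1 the 3 other Het libraries lie within the range of the KO libraries. In TMM-scaled CPM the sums were 4860, 3702, 3710 and 3535 in Het, 2163, 2647, 2504 and 2846 in KO, and 3367, 3588, 3837 and 3403 in KO_drug, and there all KO libraries lie below all others. With plain library totals, 4 members were called lower (Ndufb9, Ndufb10, Ndufb5 and Ndufv3) and 1 higher (Ndufa4l2), with a median of -0.09 for the members against 0.54 for all genes. Among all 13379 tested genes 460 were called lower in that fit. The counts of modules in KO vs Het with library totals, given below, come from the same fit. The distance between the median member and the median gene was -0.63 with library totals and -0.60 with TMM. A scaling factor shifts all genes of a library alike, so these 2 distances had to be close and are not separate support. The 4 genes named were called lower in every setting tried. In whole liver, fewer hepatocytes and less of a transcript per hepatocyte cannot be told apart.

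**Figure D3:**
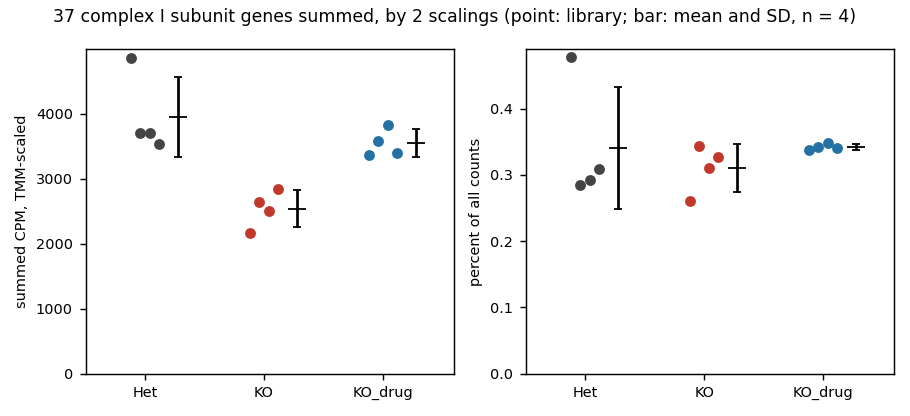
Sum of the 37 complex I genes in each library (points), with the mean and SD of 4 libraries (bars), in TMM-scaled CPM at the left and as a percent of all counts at the right. At the left all KO points, from 2163 to 2846, lie below all others, and at the right the groups overlap, with Het 1 highest at 0.478%.

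Ndufb9 (mm10, chr15:58933801-58939516), an accessory subunit at the far end of the membrane arm, and Ndufb10 had the largest falls, and their order turned with the setting. Ndufb9 stood at 381, 225, 226 and 217 CPM in Het, at 97.3, 121, 109 and 146 CPM in KO, and at 184, 194, 209 and 203 CPM in KO_drug. KO lay below both other groups without overlap, and Het 1 was far above the other Het libraries. The change was -1.15 (SE 0.19, adjusted p = 0.000469), and -0.92 without Het 1, where that of Ndufb10 was -1.04. Ndufb10 (chr17:24722060-24724423), also a distal accessory subunit, stood at 137, 110, 106 and 97.3 CPM in Het, 45.6, 50.3, 47.9 and 59.1 CPM in KO and 64.4, 93.9, 82.2 and 69.4 CPM in KO_drug. Here the 3 groups were fully separate, with KO_drug between KO and Het (KO vs Het -1.15, SE 0.15, adjusted p = 8.91e-05). Ndufb5 (chr3:32737057-32751559), a single-pass protein of the same module, stood at 168, 126, 123 and 122 CPM in Het, 56.9, 68.0, 71.9 and 78.5 CPM in KO and 94.4, 106, 108 and 112 CPM in KO_drug (-0.97, SE 0.14, adjusted p = 0.000174). Its groups were separate as well, with the same order.

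At the other end, Ndufa8 and Ndufa2 were nearest to no change. Ndufa8 (chr2:36036324-36049338), a twin-CX9C protein of the intermembrane-space face, stood at 69.9, 59.0, 54.1 and 54.7 CPM in Het, 46.0, 52.6, 47.8 and 55.6 CPM in KO and 58.5, 60.2, 62.6 and 56.9 CPM in KO_drug. Its KO and Het libraries overlapped (-0.23, SE 0.11, adjusted p = 0.102), and with library totals the estimate was 0.27. Ndufa2, a thioredoxin-fold subunit of the N module, stood at 82.2, 60.6, 59.0 and 67.1 CPM in Het, 46.1, 64.4, 53.7 and 60.7 CPM in KO and 67.8, 64.6, 66.7 and 67.0 CPM in KO_drug. Again KO and Het overlapped (-0.26, SE 0.13, adjusted p = 0.134), while the KO_drug libraries lay close together.

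**Figure D4:**
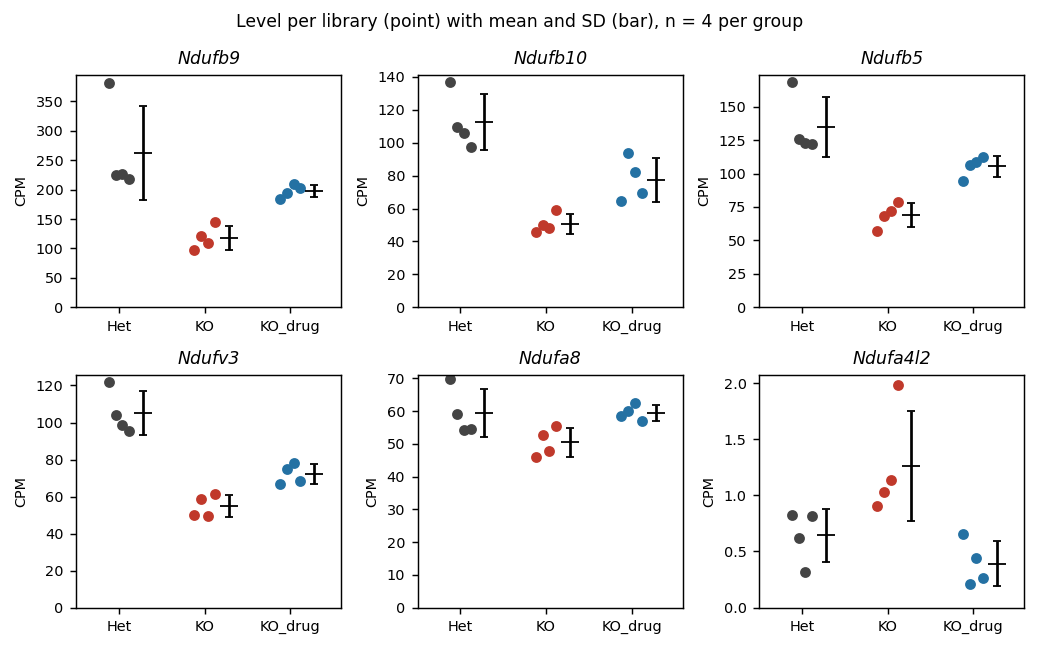
CPM (y axis, from 0) of 6 members in each library (points) with mean and SD of 4 (bars): the 4 members called lower in KO in every setting, the member nearest to no change (Ndufa8) and the one member with a positive estimate (Ndufa4l2). Ndufb9 is highest in Het 1 at 381 CPM, and Ndufa4l2 stays at or below 1.99 CPM throughout.

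Promoter sequences of 32 members, from 250 bases before to 50 bases after the annotated start, were taken from RefSeq (GRCm38.p6) to show what start regions of genes that moved together hold. The 4 shown are, among genes with an entry, those of the 2 largest falls in KO vs Het, the largest rise in KO_drug vs KO and the smallest change, a choice made after the values were seen. They run 5′ to 3′ on the gene's strand, and capitals mark matches, on either strand, to GCGCATGC (NRF1), CCGGAAGT (GABPA) or AAGATGGC (YY1), 3 factors known to act on respiratory chain genes.

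Ndufb10, chr17:24724374-24724673, minus strand: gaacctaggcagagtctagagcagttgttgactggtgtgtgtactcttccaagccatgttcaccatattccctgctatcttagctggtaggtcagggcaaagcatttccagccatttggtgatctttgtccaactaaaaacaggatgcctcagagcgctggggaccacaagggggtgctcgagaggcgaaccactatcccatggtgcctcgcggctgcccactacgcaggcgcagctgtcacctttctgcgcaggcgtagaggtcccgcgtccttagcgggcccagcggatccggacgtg
Ndufb5, chr3:32736813-32737112, plus strand: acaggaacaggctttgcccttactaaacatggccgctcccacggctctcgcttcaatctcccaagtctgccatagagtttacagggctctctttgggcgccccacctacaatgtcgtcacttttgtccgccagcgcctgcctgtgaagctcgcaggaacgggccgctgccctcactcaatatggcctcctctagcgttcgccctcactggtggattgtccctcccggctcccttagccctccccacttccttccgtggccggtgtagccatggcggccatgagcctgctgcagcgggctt
Ndufb8, chr19:44555393-44555692, minus strand: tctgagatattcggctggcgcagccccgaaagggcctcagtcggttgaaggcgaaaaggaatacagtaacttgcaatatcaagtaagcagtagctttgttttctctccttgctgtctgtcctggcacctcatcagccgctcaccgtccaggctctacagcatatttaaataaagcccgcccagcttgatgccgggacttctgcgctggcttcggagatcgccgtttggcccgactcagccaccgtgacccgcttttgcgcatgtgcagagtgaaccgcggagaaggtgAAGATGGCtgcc
Ndufa8, chr2:36049289-36049588, minus strand: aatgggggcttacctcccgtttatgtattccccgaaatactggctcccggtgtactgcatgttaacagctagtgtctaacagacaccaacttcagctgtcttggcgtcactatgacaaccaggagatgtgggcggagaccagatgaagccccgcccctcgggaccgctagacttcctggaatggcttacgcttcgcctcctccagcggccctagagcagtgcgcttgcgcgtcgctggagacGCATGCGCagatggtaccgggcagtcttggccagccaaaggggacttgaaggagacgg

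Neither Ndufb10 nor Ndufb5 holds any of these letters. Ndufb8 holds AAGATGGC starting 38 bases after the start, and Ndufa8 the NRF1 letters from 8 bases before the start, on the other strand. Over 34 promoters of the 32 members, AAGATGGC was found in 7 (20.6%), against 4.21% of 13541 promoters of tested genes and 2.75% of all 32851 promoters. The 7 are those of Ndufa3, Ndufa9, Ndufb8, Ndufc1, Ndufs4, Ndufs6 and Ndufs7, all on the gene's strand and 22 to 38 bases after the start. The letters include ATG, so they can also be the start of the reading frame. GCGCATGC was found in 8.82% of member promoters against 4.82% of those of tested genes, CCGGAAGT in 2.94% against 7.56%, GGGCGG (Sp1) in 44.1% against 59.6% and AAGGTCA (ESRRA) in 8.82% against 3.45%. GCGCATGC, CCGGAAGT and AAGATGGC do not overlap one another in the promoters shown. Of the 7 members with AAGATGGC 6 were called lower in KO vs Het (median -0.57), and of the 25 other members with an entry 19 were (median -0.64). A match describes letters and not binding, and Yy1 itself was at 35.7, 26.4 and 29.0 CPM in Het, KO and KO_drug.

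In the N module, 7 of 10 members were called lower, with a median of -0.62 (range -0.93 to -0.26). With library totals 1 was called, with a median of -0.13. Without Het 1, 8 were, with a median of -0.51. Ndufv3, a small accessory subunit bound to the flavoprotein, went from 122, 104, 98.5 and 95.7 CPM in Het to 50.04, 58.8, 49.7 and 61.4 CPM in KO, with 67.0, 74.9, 78.1 and 68.4 CPM in KO_drug, so that no groups overlapped (-0.93, SE 0.12, adjusted p = 6.91e-05). Ndufv2, which carries an iron-sulfur cluster near the flavin, fell from a mean of 128 to 73.3 CPM (-0.81). Ndufv1, which binds NADH and the flavin, fell from 216 to 134 CPM (-0.69). Ndufa6, a LYR-motif protein, fell from 106 to 64.1 CPM (-0.72), Ndufa12 from 71.3 to 45.7 CPM (-0.64), Ndufs4, whose loss is a known cause of Leigh syndrome, from 94.0 to 61.9 CPM (-0.60), and Ndufs6, a zinc-binding subunit, from 64.0 to 46.1 CPM (-0.47). The other 3 members missed the threshold, given here with their means in Het and KO: Ndufs1, the large subunit with several iron-sulfur clusters (150 and 117 CPM, -0.36), Ndufa7 (92.2 and 74.2 CPM, -0.31) and Ndufa2. Ndufs1 was one of the 2 members for which Het 1 was the lowest Het library, and without Het 1 it was called lower.

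In the Q module, all 6 members were called lower, with a range of -0.71 to -0.40 and a median of -0.56. With library totals 0 were called, with a median of -0.05. Without Het 1 all 6 were, with a median of -0.53. Ndufa5 fell from a mean of 52.6 to 32.2 CPM (-0.71) and Ndufs8, a carrier of iron-sulfur clusters, from 89.0 to 55.9 CPM (-0.67). Ndufa9, which sits by the ubiquinone site, fell from 163 to 109 CPM (-0.57), and Ndufs3, a core subunit of the arm, from 119 to 81.7 CPM (-0.55). Ndufs7, a core subunit at the ubiquinone site, fell from 52.0 to 39.3 CPM (-0.40). Under library totals Ndufs7 had a positive estimate of 0.11 and was not called. Of the 7 nuclear core subunits of both matrix modules, 6 were called lower with a median of -0.55, and of 28 accessory subunits 20 were, with a median of -0.59. With library totals 0 and 4 were called, with medians of -0.04 and -0.09, and without Het 1 7 and 17, with medians of -0.50 and -0.41.

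In the proximal membrane module, 4 of 9 members were called lower, with a median of -0.47 (range -0.64 to -0.23), and with library totals 0 were, with a median of 0.03. Without Het 1, 3 were, with a median of -0.31, and the call of Ndufc2 was lost. Ndufa13, also known as GRIM-19, fell from a mean of 150 to 99.9 CPM (-0.59), Ndufa3 from 95.9 to 63.9 CPM (-0.59), Ndufc2 from 52.8 to 37.5 CPM (-0.49) and Ndufa11, a multi-pass membrane protein, from 46.7 to 33.7 CPM (-0.47). The estimates of 5 others were not called: Ndufs5 (means of 9.18 and 5.93 CPM, -0.64), Ndufc1 (42.8 and 32.4 CPM, -0.40), Ndufa1 (73.7 and 56.7 CPM, -0.38), Ndufa10 (160 and 128 CPM, -0.32) and Ndufa8. Ndufs5 was the least abundant complex I subunit in CPM, with 116 counts in its lowest library. In the distal membrane module, 9 of 10 were called lower, with a median of -0.85 (range -1.15 to -0.38), and with library totals 3 were, with a median of -0.36. Beside Ndufb9, Ndufb10 and Ndufb5 these were Ndufb4 (72.0 to 37.8 CPM, -0.93), Ndufb8 (175 to 96.8 CPM, -0.86), Ndufb11 (150 to 84.1 CPM, -0.84), Ndufb2 (45.0 to 28.9 CPM, -0.64), Ndufb7 (73.3 to 54.0 CPM, -0.44) and Ndufb3 (52.5 to 39.6 CPM, -0.41). Ndufb6 missed the threshold at 77.6 and 59.7 CPM (-0.38). Without Het 1, 7 distal members were called lower, with a median of -0.62, and the calls of Ndufb7 and Ndufb3 were lost. Ndufb4 has near-identical copies in the RefSeq annotation, so its reads may have been divided among them.

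The membrane arm was therefore not lowered evenly. The difference between the mean log2 level of the 10 distal and the 9 proximal genes does not depend on the scaling. It was 0.838, 0.696, 0.653 and 0.744 in Het 1 to 4, 0.378, 0.413, 0.518 and 0.389 in KO 2, 4, 5 and 6, and 0.528, 0.581, 0.5 and 0.587 in KO_drug 1 to 4. Every KO library lay below every Het library, also with Het 1 left out, and KO_drug lay between Het and KO with an overlap of its lowest library with the highest KO library. Gene length had medians of 812 nt (distal) and 844 nt (proximal), but the proximal genes ranged from 433 to 3299 nt and the distal ones from 563 to 1238 nt. With the length correction the module medians in KO vs Het were -0.62 (distal) and -0.22 (proximal). These module values are descriptions without a test.

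**Figure D5:**
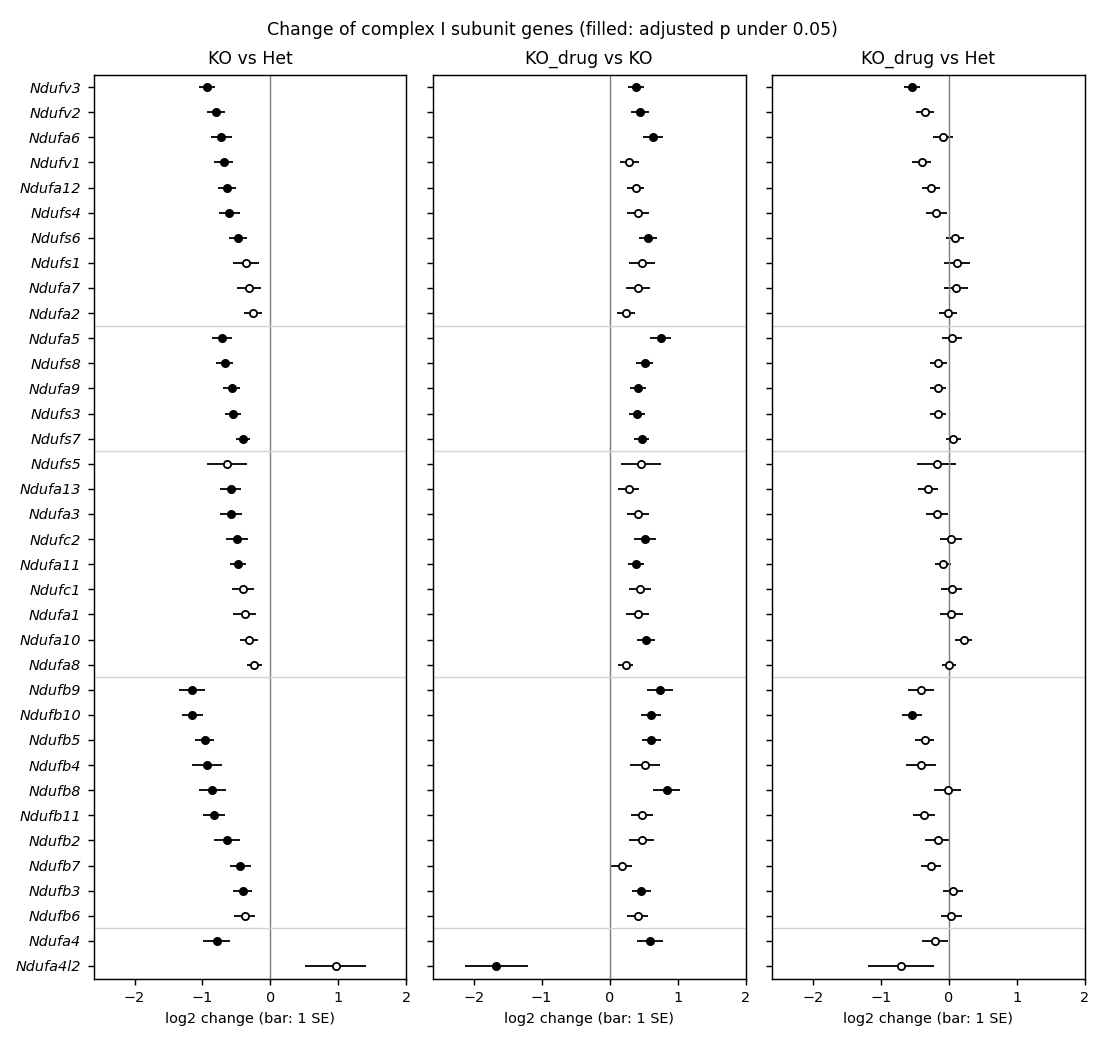
Log2 change of 36 of the 37 genes (points, bars 1 SE) in 3 comparisons, ordered by module (grey lines) from N at the top through Q, proximal and distal membrane to the Ndufa4 pair. Filled points have an adjusted p under 0.05: 26 in KO vs Het, all to the left of 0, 19 in KO_drug vs KO, of which 18 are to the right, and 2 in KO_drug vs Het.

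The Ndufa4 pair split. Ndufa4, of cytochrome c oxidase, fell from 438, 251, 253 and 279 CPM in Het to 137, 224, 167 and 178 CPM in KO (-0.79, SE 0.20, adjusted p = 0.00626), and stood at 238, 259, 293 and 272 CPM in KO_drug. Ndufa4l2 is transcribed at a very low level: its counts were 16, 12, 6 and 16 in Het, 31, 22, 39 and 47 in KO and 13, 4, 8 and 5 in KO_drug. In CPM it stood at 0.825, 0.624, 0.317 and 0.816 in Het, 0.909, 1.03, 1.14 and 1.99 in KO and 0.656, 0.208, 0.441 and 0.265 in KO_drug. All KO libraries were above all others, but the rise in KO vs Het was not called with TMM scaling (0.96, SE 0.45, adjusted p = 0.104), and was called with library totals (1.44, adjusted p = 0.0201). The span of Ndufa4l2 overlaps Shmt2 on the opposite strand, which had means of 127, 120 and 168 CPM in Het, KO and KO_drug. The library kit keeps the strand, per the labels' protocols, and whether the counting used it is not given in the sources used here.

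Feeding the agonist to knockout mice went with higher complex I transcripts than in untreated knockout mice. Of the 37 members, 19 were called higher in KO_drug than in KO and 1 lower (Ndufa4l2), while 8.80% of all tested genes were called higher and 11.0% lower. The median member changed by 0.45, a 1.37-fold higher level, against -0.02 for all tested genes. Over all tested genes under 1000 nt the median was 0.16, and over those of 1000 to 2000 nt it was 0.08. For 31 members all 4 KO_drug libraries lay above all 4 KO libraries, which 11.4% of tested genes showed. Of the 19 genes called higher, 18 had been called lower in KO vs Het. Both comparisons use the same KO libraries, so the 2 sets are not independent. The remaining gene, Ndufa10, a nucleoside-kinase-like subunit, stood at 163, 170, 171 and 135 CPM in Het, 114, 117, 139 and 143 CPM in KO and 187, 192, 203 and 161 CPM in KO_drug (KO_drug vs KO 0.53, SE 0.13, adjusted p = 0.0122). The number of calls moved with single libraries: it was 30 without Het 1, which is in neither group compared, and 10 without KO 2 or without KO_drug 3. Without KO 4, KO 5 or KO_drug 2 it was 12. Among all genes 1177 were called higher in the main fit, 1410 without Het 1, 785 without KO 2 and 722 without KO_drug 3. Without KO 4, KO 5 and KO_drug 2 the all-gene counts were 733, 1011 and 938. With library totals 0 members were called higher, with a median of 0.11 against -0.36 for all genes, and with the length correction 17 were, with a median of 0.34. Among all genes 358 and 1342 were called higher in these 2 fits.

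The largest rises were in Ndufb8, Ndufa5 and Ndufb9. Ndufb8, a distal accessory subunit often used as a protein marker of assembled complex I, stood at 78.8, 113, 88.0 and 108 CPM in KO and at 153, 174, 192 and 173 CPM in KO_drug, without overlap, and at 263, 145, 146 and 146 CPM in Het. The rise over KO was 0.84 (SE 0.20, adjusted p = 0.0117). Ndufa5 stood at 25.6, 35.7, 30.5 and 37.1 CPM in KO and at 56.9, 55.9, 58.4 and 45.3 CPM in KO_drug, again without overlap (0.75, SE 0.15, adjusted p = 0.00493), and at 65.3, 46.6, 47.6 and 50.8 CPM in Het. Ndufb9, with the values above, rose by 0.74 (SE 0.19, adjusted p = 0.0156). By module, all 6 Q module genes were called higher (median 0.45), 4 of 10 in the N module (0.42), 3 of 9 in the proximal (0.41) and 5 of 10 in the distal membrane module (0.50), beside Ndufa4. With library totals 0 were called in each module, with medians of 0.11, 0.08, 0.07 and 0.16. Ndufa4l2 was the one member that fell (-1.67, SE 0.47, adjusted p = 0.0257). That call was lost without KO 6, the library with its highest level (-1.37, adjusted p = 0.0752), and without KO_drug 2, 3 or 4, where the adjusted p was 0.0741, 0.0611 and 0.0751. It was also lost when both KO 5 and KO 6 were left out (-1.24, adjusted p = 0.167).

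Against Het, the knockout livers with agonist showed small differences. Of the 37 members 2 were called lower, Ndufb10 (-0.54, SE 0.15, adjusted p = 0.0196) and Ndufv3 (-0.54, SE 0.12, adjusted p = 0.00501), and 0 higher. With library totals 0 were called lower and 1 higher, Ndufa10 (0.40, adjusted p = 0.042), and limma on FPKM also called 1 higher. At an unadjusted p under 0.05 there were 7, and DESeq2 called 4 lower, beside 1401 among all tested genes. Among all tested genes 8.45% were called lower and 13.0% higher. The median member was at -0.15, and the estimates without Ndufa4l2 ran from -0.54 to 0.22. All tested genes under 1000 nt had a median of -0.11, and those of 1000 to 2000 nt one of -0.02. The 95% intervals show what these libraries could resolve: for Ndufb8 the log2 difference was -0.02 (-0.44 to 0.41), for Ndufa5 0.04 (-0.28 to 0.36) and for Ndufb9 -0.41 (-0.81 to -0.01). A difference of this size in either direction is thus compatible with the data for many members that were not called. The call of Ndufb10 was lost without Het 1 (adjusted p = 0.0503), without KO_drug 1 (0.0614), without KO_drug 4 (0.0616) and with library totals (0.133), while that of Ndufv3 was lost with library totals (0.0832) but not when any single library was left out. Without Het 1 the median member was at 0.00.

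Levels can be compared between genes with the deposited FPKM, which divide by gene length and by the library total. In Het the mean FPKM of the 36 members other than Ndufa4l2 ran from 12.1 to 436, with a median of 87.1. Ndufa4 was highest at 436, followed by Ndufb9 (283), Ndufa3 (191) and Ndufb8 (185), and Ndufa11 (12.1) and Ndufs5 (12.7) were lowest. In KO the median over the same genes was 81.0 FPKM and in KO_drug 85.2 FPKM, and Ndufb9 stood at 179 and 234 FPKM. FPKM are scaled to library totals, so their groups show the smaller differences of that scale.

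Some of the counts may hold reads of neighbours. The spans of 11 members overlap those of another tested gene in the GENCODE annotation, as with Ndufb5 and Mrpl47, Ndufs6 and Mrpl36, and Ndufs3 and Kbtbd4. A protein-coding gene that starts within 1000 bp in the opposite direction was found for 9 of the 37 members (24.3%), and for 1261 of 12593 tested protein-coding genes. Of these 9 partners 7 were tested, and 3 were called lower in KO vs Het: Wdr4 beside Ndufv3 (-0.82), Rps28 beside Ndufa7 (-0.63) and Fam126b beside Ndufb3 (-0.53). The median of the 7 was -0.04. Tatdn1, which shares its start region with Ndufb9, was at 0.08 (adjusted p = 0.771).

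The rest of the respiratory chain moved with complex I. Of 9 nuclear genes of complex III, which oxidizes ubiquinol, 9 were called lower in KO vs Het (median -0.80), of 10 of complex IV 9 (-0.68), of 15 of ATP synthase 15 (-0.75) and of the 4 of complex II 4 (-0.58). Their medians stayed negative with library totals, from -0.28 to -0.06, with 1, 2, 3 and 1 called lower. In that fit the median of all tested genes was 0.54, and 460 of them were called lower. Without Het 1, 9, 8, 14 and 4 were called lower, with medians of -0.62, -0.52, -0.65 and -0.59. In KO_drug vs KO, 6, 7, 11 and 3 were called higher, with medians of 0.56, 0.60, 0.52 and 0.50, beside 8.80% of all tested genes. With library totals 0, 0, 0 and 1 were called higher, with medians of 0.22, 0.26, 0.18 and 0.15 against -0.36 for all genes. Of 8 other genes that feed ubiquinone from fatty acids, proline, sulfide and the like, 5 were called lower (median -0.57). With library totals 2 were lower and 2 higher (-0.05). Of 78 genes of mitochondrial ribosomes 36 were called lower (-0.34). With library totals 0 of these were lower and 11 higher, with a median of 0.18 that lies below the 0.54 of all genes. Of 12 genes for mitochondrial import, chaperones, membrane channels, prohibitins, cytochrome c and citrate synthase 6 were called lower (-0.36) and 0 higher. With library totals 0 were lower and 1 higher, with a median of 0.18, also below that of all genes. Among the 12, the prohibitin gene Phb2 stood at 188, 166, 154 and 155 CPM in Het and at 85.9, 91.1, 91.45 and 109 CPM in KO. Citrate synthase, Cs, stood at 119 ± 17.6 CPM in Het and 124 ± 13.0 CPM in KO (0.06, adjusted p = 0.780).

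Assembly factors, which build complex I and are not part of it, did not all move alike. Of 15 tested, 7 were called lower in KO vs Het and 1 higher, with a median of -0.37. With library totals 2 were lower and 4 higher, with a median of 0.16 against 0.54 for all genes. In KO_drug vs KO 5 were called higher and 0 lower (median 0.37), against 8.80% and 11.0% of all tested genes. With library totals 0 were called there, with a median of 0.02 against -0.36 for all genes. Ndufaf2, which acts at the late joining of the N module, had the largest fall, from 10.8, 11.2, 8.30 and 9.08 CPM in Het to 3.05, 4.99, 2.98 and 3.89 CPM in KO (-1.41, SE 0.20, adjusted p = 0.000161). With the agonist it stood at 4.79, 4.95, 5.51 and 3.98 CPM, below all Het libraries (-1.03, adjusted p = 0.00230) and overlapping KO. Foxred1, a flavoprotein among the assembly factors, showed the same order, with 29.3 ± 2.90, 14.5 ± 2.04 and 15.4 ± 1.05 CPM in Het, KO and KO_drug (KO vs Het -1.02, adjusted p = 5.41e-05; KO_drug vs KO 0.09, adjusted p = 0.648). Both were called lower in KO vs Het with library totals as well (-0.89 and -0.50). Acad9, an assembly factor that is also an acyl-CoA dehydrogenase, was higher in KO (40.4 ± 4.79 to 56.8 ± 5.01 CPM, 0.49, adjusted p = 0.0132). Ndufab1 stood at 27.6 ± 5.51, 22.8 ± 4.29 and 30.6 ± 0.980 CPM and was not called in any comparison (KO vs Het -0.28, adjusted p = 0.172).

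Of 12 regulators of mitochondrial biogenesis 3 were called lower in KO vs Het and 0 higher, with 0 and 2 under library totals. Ppargc1a, which encodes the coactivator PGC-1 alpha, varied widely within groups, from 5.20 to 14.1 CPM in Het and from 5.81 to 12.6 CPM in KO, and was not called (-0.31, SE 0.36, adjusted p = 0.512). Tfb2m, a transcription factor of mitochondrial DNA, went from 29.8, 31.1, 31.4 and 32.7 CPM in Het to 18.3, 19.6, 20.8 and 20.1 CPM in KO and to 26.3, 32.7, 28.8 and 26.1 CPM in KO_drug. It was lower in KO than in Het (-0.67, SE 0.10, adjusted p = 0.000255) and higher in KO_drug than in KO (0.53, adjusted p = 0.00400), and neither was called with library totals (adjusted p = 0.318 and 0.234). Gabpa and Yy1 were the other 2 (-0.54 and -0.44), and at -0.02 and 0.07 with library totals they were not called. Of 8 hypoxia-induced genes tested, 4 were called lower and 1 higher in KO vs Het (median -0.33). With library totals 1 was lower and 2 higher, with a median of 0.18 against 0.54 for all genes. Pdk1, a kinase that holds pyruvate back from the citrate cycle, moved furthest among them, with 139 ± 33.3, 48.4 ± 12.3 and 176 ± 47.4 CPM in Het, KO and KO_drug (KO vs Het -1.53, adjusted p = 0.000350; KO_drug vs KO 1.86, adjusted p = 0.000673). The estimates of Ndufa4l2 and Pdk1 had opposite signs in both comparisons, and the difference between the genes was not tested.

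The median changes of marker lists of other liver cells had the opposite sign to that of the members, and their part in the fall and rise was not tested. All 12 macrophage markers were called higher in KO vs Het, and their sum ranged from 425 to 572 CPM in Het, 1028 to 2205 CPM in KO and 479 to 1079 CPM in KO_drug. Of 7 T and NK cell markers 6 were called higher, with sums of 2.96 to 5.51, 8.29 to 22.7 and 3.13 to 6.63 CPM. Stellate cell markers (5 of 9 higher) summed to 272 to 308, 419 to 704 and 234 to 275 CPM, and cholangiocyte markers (3 of 8 higher, 1 lower) to 26.9 to 31.3, 75.8 to 156 and 25.1 to 37.9 CPM. Endothelial markers (3 of 8 higher) summed to 256 to 422, 350 to 420 and 301 to 381 CPM. Of 12 hepatocyte markers 9 were called lower in KO vs Het, with a median of -0.89, and with library totals 4 were lower and 1 higher, with a median of -0.38. With library totals 12 macrophage, 7 T and NK cell, 6 stellate cell, 4 cholangiocyte and 4 endothelial markers were called higher and 0 lower, and none of the markers tested was at 0 in all libraries. With KO 2 and KO 4, the libraries without Xist, as the only KO libraries, 28 members were called lower in KO vs Het (median -0.70) and 17 higher in KO_drug vs KO (median 0.57). Among all genes 2154 were called lower (median -0.03) and 1177 higher (median 0.02) in the same comparisons.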

How the data were processed

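RNA of 12 livers was purified on RNeasy columns, and TruSeq stranded libraries of total RNA were made, as the labels' protocols state. The build mm10 and the programs FastQC (0.11.7) and StringTie (2.1.3b) come from the submitters' processing notes. The aligner and gene annotation were not stated there. Per the file headers, the authors deposited whole-number read counts and an FPKM value for each gene and library, and 3 unnamed columns were not used. Counts were filtered with filterByExpr (minimum count 10, minimum total 15), scaled by TMM and fitted in 1 edgeR 4.0.16 quasi-likelihood model of all 12 libraries (R 4.3.3, 9 residual degrees of freedom). Adjusted p is two-sided with the Benjamini-Hochberg method over 13379 genes, and a call needs a value under 0.05. Alternatives were limma 3.58.1 on log2(FPKM + 1), DESeq2 1.42.0, other scalings and filters, left-out libraries, a replicate block and a lowess correction for gene length (span 0.3), the last chosen after seeing the data. The scripts were tested on simulated data. Members are named except 1 that is not reported here by itself and only enters counts, sums and medians, with values per library for the largest changes and those nearest to no change. Modules follow textbook structures. The members, lists and 5 motifs were chosen with earlier results of these data known. Positions are from tables of GRCm38, the build mm10. Library totals of 16.5 to 28.3 in 1e6 counts gave 116 to 8490 counts per member and library, apart from Ndufa4l2.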

Additional observations from a re-analysis of the deposited data

Results flagged for a closer look

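In 15 of 111 groups of 4 libraries, 1 library's level of a member lay further from the others than Dixon's 95% limit allows. For a single group chance gives about 1 in 20. The 111 groups share the same 12 libraries and are not independent, so their count cannot be set against that rate. Het 1 was the high library in 13 of the 15, and as these come from 1 library they are not 13 separate outliers. In CPM, Het 1 stood at 98.2 for Ndufa1 (other Het libraries 63.6 to 68.1), 196 for Ndufa13 (131 to 138), 129 for Ndufa3 (83.8 to 86.7), 438 for Ndufa4 (251 to 279) and 133 for Ndufa7 (74.3 to 82.9). In the distal module it stood at 168 for Ndufb5 (122 to 126), 103 for Ndufb6 (68.0 to 70.0), 263 for Ndufb8 (145 to 146) and 381 for Ndufb9 (217 to 226). It stood at 55.9 for Ndufc1 (up to 39.2), 69.3 for Ndufc2 (46.1 to 48.2), 14.8 for Ndufs5 (6.55 to 7.88) and 107 for Ndufs8 (81.9 to 84.1). KO_drug 3 was the high library in the other 2, at 51.7 for Ndufa11 (41.0 to 42.4) and 91.6 for Ndufb6 (74.7 to 77.4).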

How the results depend on the processing

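Members are counted in the order KO vs Het lower, KO_drug vs KO higher and KO_drug vs Het lower. The counts were 4, 0 and 0 with library totals (medians -0.090, 0.11 and 0.012) and 4, 0 and 0 with limma on log2(FPKM + 1) (medians -0.041, 0.10 and 0.033). All genes called were 460, 358 and 499 with library totals and 457, 375 and 470 with FPKM. In KO vs Het 16 of 37 estimates were positive with library totals, 7 of them for members called lower with TMM. Among these were Ndufa11 (0.032), Ndufb3 (0.10), Ndufb7 (0.046), Ndufc2 (0.0046), Ndufs6 (0.030) and Ndufs7 (0.11), and with FPKM the values were 0.058, 0.13, 0.11, 0.053, 0.065 and 0.13. DESeq2 called 4 members lower in KO_drug vs Het, and the length correction 5. All genes called lower there were 1401 and 1247, against 1130 in the main fit. Leaving out 1 library gave 24 to 29, 10 to 30 and 1 to 3 members, with medians of -0.64 to -0.43, 0.36 to 0.51 and -0.21 to 0.0030. All genes called higher in KO_drug vs KO were 733 without KO 4 and 722 without KO_drug 3, within a range of 722 to 1410. Those called lower ranged from 1991 to 2399 in KO vs Het and from 815 to 1122 in KO_drug vs Het. With the replicate number as a block the members were 14, 4 and 1, and all genes called were 1366, 633 and 948. In that fit the call of Ndufa4l2 in KO_drug vs KO was lost (-1.49, adjusted p = 0.187). Same-numbered libraries correlated by -0.0346 to 0.136, so the numbers were not taken as pairs. The causes were not tested. Ndufa4l2 had 4 to 47 counts per library.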
